A study of Homo sapiens with 4 samples.

Results

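Vanins and the enzymes of coenzyme A synthesis were examined as 1 group of 9 listed genes, VNN1, VNN2, PANK1, PANK2, PANK3, PANK4, PPCS, PPCDC and COASY. A gene counted as measured where the platform annotation gave its symbol alone to an array feature. Of the 9, 8 were measured, with 1 feature each, among 17687 genes in all, and PANK4 was not analysed here. Where a gene had several features, the one kept would have been chosen by its mean level over the 4 arrays, which none of these 8 required. The group was drawn up with earlier results of these data known, the rise of VNN2 among them, so that rise is a description and supports nothing further.

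NB4-R4 is a subclone of NB4, an established line of acute promyelocytic leukaemia that carries the PML-RARA fusion, and unlike its parent it does not mature when given all-trans retinoic acid. Both groups were cells of this 1 line, so no retinoid-sensitive line stands beside them. One group was treated with MK-8776, an inhibitor of the checkpoint kinase CHK1, at 4 µM for 96 h, and the other with the vehicle DMSO for as long. Each group had 2 arrays, which the labels call biological replicates. RNA came from live cells. How the cultures were separated is not given in the sources used here, so the p-values rest on a spread between samples that may be technical. The comparison asks how transcript levels in these resistant cells differ after CHK1 inhibition.

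Coenzyme A carries acyl groups in fatty acid synthesis and oxidation, the citric acid cycle and protein acetylation, and it is built from pantothenate (vitamin B5). Pantothenate kinases take the first and rate-limiting step, PPCS joins cysteine to the product, PPCDC removes its carboxyl group, and the bifunctional enzyme COASY completes the molecule. Vanins act at the other end of the route: outside the cell they split pantetheine, a breakdown product of coenzyme A, into pantothenate, which can be taken up again, and cysteamine, a small aminothiol. VNN1 and VNN2 are held at the cell surface by a GPI lipid anchor, and VNN2, also called GPI-80, is a known surface protein of neutrophils and monocytes.

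Levels are given as RMA expression, on the log2 scale. Changes are log2 differences, MK-8776 minus DMSO, with the standard error (SE), 95% interval and adjusted p of a limma fit over all 17687 genes, and a gene is said to have risen or fallen only at an adjusted p under 0.05. Within a group the arrays correlated across genes at 0.993, against 0.981 to 0.989 between groups, and all arrays had like medians (5.76 to 5.79). Of the promyelocyte markers, MPO was at 16.09 and 16.27 in DMSO, CTSG at 8.56 and 8.50, PRTN3 at 6.79 and 7.85 and AZU1 at 5.99 and 8.16, against a median of all values of 5.77. The mean level of the 4 measured promyelocyte markers was 9.36 to 10.20 in DMSO and 7.91 to 8.40 in MK-8776, and 2 of the 4 (PRTN3 and CTSG) fell, where 2.02% of all genes fell. Of 4 measured megakaryocyte markers ITGA2B fell by 1.55, PPBP rose by 1.82 and 2 did not pass. Of 5 lymphoid markers CD3E fell by 1.38, NKG7 rose by 1.23 and 3 did not pass. Of 5 monocyte markers CD14 rose by 1.37 and 4 did not pass. Limma called 0 of 8 mature neutrophil markers, 0 of 4 erythroid markers and 0 of 4 markers of eosinophils, basophils and mast cells. Over all genes 1.66% rose and 2.02% fell. CHEK1, which encodes CHK1, had a change of -0.81 (SE 0.22) and did not pass in limma (adjusted p = 0.0883, but 0.0333 with a variance trend). Bulk RNA cannot tell fewer cells with a transcript from less transcript per cell.

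After MK-8776 both vanin genes rose and none of the 6 measured synthesis enzymes passed the test. That is 2 calls among 8 members, both rises, where 3.69% of all genes passed in the same fit, 1.66% as rises and 2.02% as falls. Among the synthesis enzymes limma called 0 of 6, and 2 of the 6, PANK1 and PANK2, had an unadjusted p under 0.05, as did 18.8% of all genes. The median change of the 6 was -0.34, against 0.005 over all genes, and their changes ran from -0.775 to 0.70. The MK-8776 arrays lay wholly above or wholly below the DMSO arrays in 6 of the 8 members, 4 above and 2 below, where 48.2% of all genes did so, 24.0% above and 24.2% below.

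**Figure D1:**
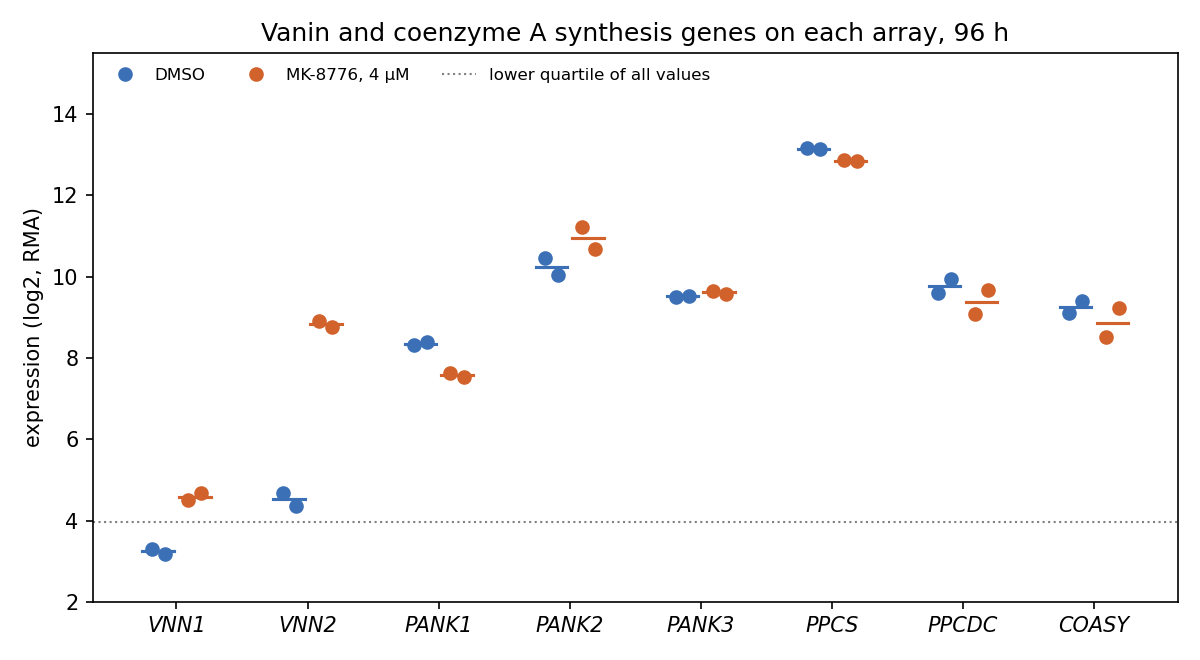
Expression (log2, RMA) of the 8 measured genes on each array, with DMSO in blue and MK-8776 at 4 µM in orange. Points are arrays, short bars are group means (n = 2), and the dotted line is the lower quartile of all values (3.97). Both vanins start near the bottom of the range and are higher on both MK-8776 arrays, while the synthesis enzymes stay within 1 log2 unit of their DMSO means.

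VNN2 encodes the leukocyte vanin. Its feature, TC0600013205.hg.1, pools 9 listed transcripts of a gene on chromosome 6, 132743870 to 132763455 (GRCh38.p14). It measured 4.68 and 4.36 on the DMSO arrays and 8.91 and 8.76 on the MK-8776 arrays. Both treated arrays were thus far above both controls, and the arrays within a group lay close together. The means were 4.52 ± 0.23 and 8.84 ± 0.11 (SD, n = 2), a change of 4.32 (SE 0.22, interval 3.81 to 4.82, adjusted p = 0.000170, limma), or 19.9-fold on this scale. It was number 4 of the 17687 genes by size of rise. Without DMSO replicate 1 the change was 4.48 and without DMSO replicate 2 it was 4.16, but the adjusted p was then 0.133 and 0.251. In those limma fits 0 of all genes passed (2620 and 1815 at an unadjusted p under 0.05), and the lone DMSO array is assumed to vary like the treated pair. Without MK-8776 replicate 1 or 2 it stayed under the threshold (0.0306 and 0.0325).

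VNN1, the vanin best known from epithelial and liver cells, lies beside VNN2 on chromosome 6, 132680849 to 132714055 (feature TC0600013203.hg.1). It measured 3.30 and 3.19 in DMSO and 4.50 and 4.68 in MK-8776, so the groups did not overlap. The change was 1.35 (SE 0.21, interval 0.87 to 1.82, adjusted p = 0.0152, limma), number 162 by size of rise and 2.54-fold on this scale. The interval lies wholly below that of VNN2. The DMSO level was under the lower quartile of all values (3.97) and the MK-8776 level was only a little above it, and no background per feature is known here. Leaving out any 1 array kept the change between 1.26 and 1.44 and ended the call: the adjusted p became 0.236 and 0.365 on leaving out DMSO replicate 1 and 2 in turn, and 0.174 and 0.123 on leaving out MK-8776 replicate 1 and 2. The 2 vanins are paralogs, and whether probes of one also bind transcripts of the other was not tested.

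No other measured neighbour of the vanins passed the test. The nearest 4 measured genes on one side of VNN2 are VNN1, the trace amine receptor genes TAAR1 and TAAR2, and the pseudogene TAAR3P. On the other side they are SLC18B1, RPS12, EYA4 and TCF21. VNN3P, a vanin pseudogene that lies between VNN1 and VNN2, was not analysed here. Besides the vanins, 0 of these 7 passed in the limma fit, where 3.69% of all genes passed. At an unadjusted p under 0.05 there were 0 of the 7, against 18.8% of all genes. With shares this low, 0 of 7 says little. Changes of the 7 ran from -0.305 to 0.24. SLC18B1, which encodes a vesicular polyamine transporter and is the first measured gene beyond VNN2, was at 5.55 and 4.96 in DMSO and 5.30 and 4.60 in MK-8776. RPS12, a ribosomal protein gene, was at 16.70 and 16.79 against 16.69 and 16.64. Of the 7, 3 (TAAR3P, TAAR2 and EYA4) lay under the lower quartile in both groups, where a lack of a call says little.

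**Figure D2:**
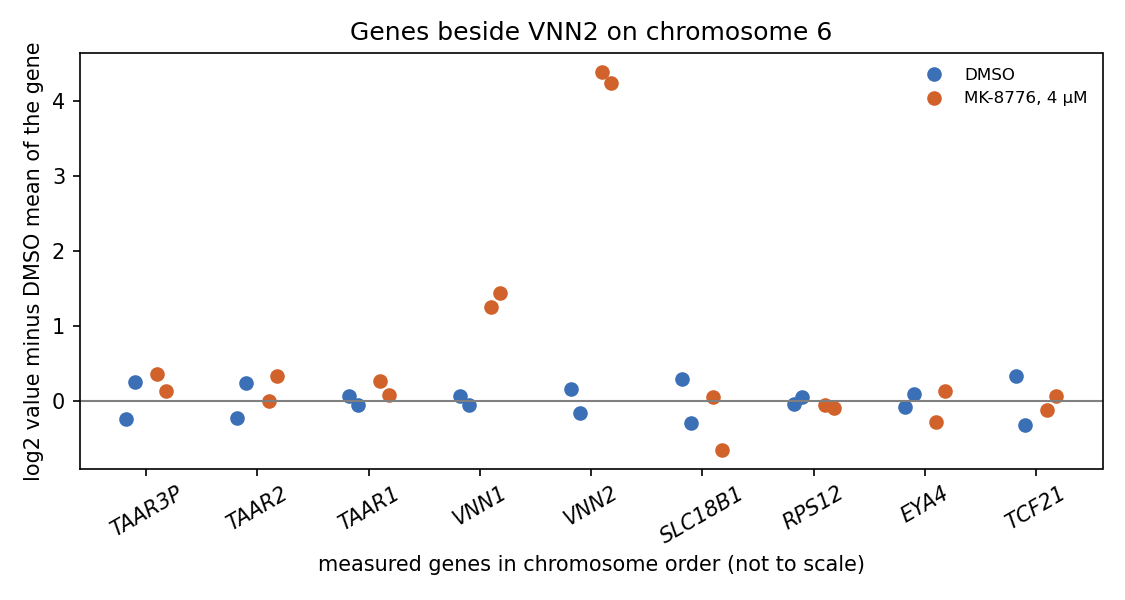
Log2 values of VNN2 and the nearest 4 measured genes on each side, each minus the gene's own DMSO mean, in chromosome order and not to scale. Blue points are DMSO arrays and orange points MK-8776 arrays. VNN1 and VNN2 stand above 1 on both treated arrays, while the changes of the other 7 genes run from -0.305 to 0.24.

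The bases just before the VNN2 start are shown because VNN2 had the largest change of the group, with those of PANK1, the synthesis enzyme with the largest change, and of PANK3, the one with the smallest. The 250 bases before the start are written from RefSeq (GRCh38.p14), on the gene's own strand, with CpG dinucleotides in capitals. The windows are chr6:132763456-132763705 for VNN2, chr10:89645243-89645492 for the outer of 2 listed PANK1 starts, and chr5:168579369-168579618 for PANK3, all on the minus strand.
VNN2: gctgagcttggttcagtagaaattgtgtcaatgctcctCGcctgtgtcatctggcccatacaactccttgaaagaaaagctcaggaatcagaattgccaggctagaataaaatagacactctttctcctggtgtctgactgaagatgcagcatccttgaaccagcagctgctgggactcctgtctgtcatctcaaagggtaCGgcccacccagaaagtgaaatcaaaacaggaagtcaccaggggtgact
PANK1: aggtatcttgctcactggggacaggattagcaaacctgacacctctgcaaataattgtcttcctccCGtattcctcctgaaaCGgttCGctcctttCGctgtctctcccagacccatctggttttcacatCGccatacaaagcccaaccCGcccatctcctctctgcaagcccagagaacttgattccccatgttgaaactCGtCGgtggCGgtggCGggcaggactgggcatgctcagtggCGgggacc
PANK3: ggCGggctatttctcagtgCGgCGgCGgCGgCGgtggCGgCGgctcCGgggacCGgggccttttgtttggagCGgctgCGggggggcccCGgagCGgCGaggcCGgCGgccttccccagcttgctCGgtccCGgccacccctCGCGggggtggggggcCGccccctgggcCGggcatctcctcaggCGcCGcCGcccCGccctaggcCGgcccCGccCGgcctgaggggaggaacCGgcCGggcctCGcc
The VNN2 window holds 2 CpG dinucleotides and is 48.4% G or C, the PANK1 window holds 11 and is 55.6%, and the PANK3 window holds 33 and is 81.6%. The median of 35116 such windows is 11 CpG dinucleotides and 58.0% G or C. Of all windows, 22.9% hold as few CpG dinucleotides as VNN2 or fewer, and 93.2% hold as many as PANK3 or fewer. Among windows not printed, those of PANK2 (change 0.70) hold 4 to 34, and those of PPCDC (change -0.405) 4 and 12. A link between CpG content and change was not tested.

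The same windows of 250 bases were searched on both strands for 7 motifs of factors active in myeloid or stressed cells. They were the antioxidant response element core TGACNNNGC (in 10.9% of all windows), the E-box CACGTG (6.34%), the AP-1 site TGANTCA (6.57%), the C/EBP site TTGCNNAA (9.05%), the PU.1 site GAGGAAG (11.2%), the NF-kB site, GGGA and CC with any 4 bases between them (22.6%), and the nuclear receptor direct repeat, AGGTCA written 2 times with any 1 base between (0.0171%). Of all 15 windows searched for 8 members, 5 hold an NF-kB match, 3 PU.1, 2 the antioxidant core, 2 AP-1 and 1 C/EBP. The E-box and the direct repeat are in 0 of the 15. The VNN2 window holds none of the 7 motifs, and the share of all windows that hold none was not counted. The outer PANK1 window holds a PU.1 match on the opposite strand, 192 to 186 bases before the start. The inner PANK1 window, not printed above, holds an AP-1 match 238 to 232 bases before its start. It also holds an NF-kB match 103 to 94 bases before that start. In the PANK3 window the NF-kB letters stand 24 to 15 bases before the start. Matches are descriptions of sequence, and binding was not measured.

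Among the pantothenate kinases, PANK1, PANK2 and PANK3 did not move together. PANK1, whose product resides mainly in the cytosol and nucleus, measured 8.32 and 8.39 in DMSO and 7.63 and 7.53 in MK-8776. Both treated arrays lay below both controls, and the change was -0.775 (SE 0.20, interval -1.24 to -0.31), which missed the threshold at an adjusted p of 0.0818 in the limma fit. Tested only among features above the median level, PANK1 passed at an adjusted p of 0.0435. Its feature, TC1000011382.hg.1 (chromosome 10, 89579495 to 89645242), pools 3 listed transcripts, so forms from the inner and the outer start cannot be told apart.

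PANK2 encodes the mitochondrial kinase, whose loss causes a neurodegeneration with brain iron accumulation. It measured 10.46 and 10.03 in DMSO and 11.21 and 10.68 in MK-8776, with both treated arrays above both controls. The change was 0.70 (SE 0.26, interval 0.10 to 1.30, adjusted p = 0.197, limma), which came to 0.435 on leaving out MK-8776 replicate 1 and to 0.965 on leaving out replicate 2. PANK1 and PANK2 thus had changes of opposite sign whose intervals do not overlap, although neither passed over all genes and the difference between them was not tested.

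PANK3, a cytosolic kinase, measured 9.51 and 9.53 in DMSO and 9.65 and 9.58 in MK-8776. Its change of 0.095 (SE 0.20, interval -0.37 to 0.56, adjusted p = 0.858, limma) was the smallest of the group. The arrays within a group differed by 0.02 and 0.07, so the groups did not overlap in spite of the small change. The change was 0.06 without replicate 1 of MK-8776, and the interval leaves room for a change of up to 0.56 upward.

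The 3 measured kinase genes share a feature that the choice of the group did not use: each spans a miRNA gene on its own strand, and the main arms of these miRNAs are of 1 family, which is why they are shown. PANK2 and PANK3 also hold the other arm of hsa-miR-103a and, on the opposite strand, hsa-miR-103b, which have other seeds. The arms shown are written from RefSeq (GRCh38.p14) with the seed, bases 2 to 8, in capitals.
hsa-miR-107, within PANK1 at chr10:89592756-89592778: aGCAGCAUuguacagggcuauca
hsa-miR-103a-3p, within PANK2 at chr20:3917541-3917563 and within PANK3 at chr5:168560904-168560926: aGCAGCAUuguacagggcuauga
The seed GCAGCAU is the same in both. The miRNAs themselves were not analysed here, and the host genes had changes of -0.775, 0.70 and 0.095.

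PPCS encodes the second enzyme of the route, phosphopantothenoylcysteine synthetase. It measured 13.16 and 13.13 in DMSO and 12.86 and 12.85 in MK-8776 (chromosome 1, 42456341 to 42473417). The arrays within a group differed by 0.03 or less and the groups did not overlap. The change was small, -0.29, and its SE of 0.20, which borrows spread from all genes, put the interval at -0.75 to 0.17 (adjusted p = 0.509, limma).

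PPCDC and COASY, which encode the decarboxylase and the bifunctional last enzyme, had unlike values on the treated arrays. PPCDC measured 9.60 and 9.95 in DMSO and 9.07 and 9.67 in MK-8776. COASY measured 9.11 and 9.40 in DMSO and 8.52 and 9.22 in MK-8776. In both genes MK-8776 replicate 1 was below both controls, while replicate 2 lay among the controls, so the groups overlapped. The treated arrays differed by 0.60 and 0.70, more than in 87.9% and 92.8% of all genes. The changes were -0.405 for PPCDC (interval -1.01 to 0.20, adjusted p = 0.477) and -0.385 for COASY (interval -1.01 to 0.24, adjusted p = 0.521, limma). With only replicate 2 of MK-8776 they were -0.105 and -0.035, and with only replicate 1 they were -0.705 and -0.735, so their size depended on which treated array was used. Without DMSO replicate 2 they were -0.23 and -0.24, also more than 1.5 times smaller.

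**Figure D3:**
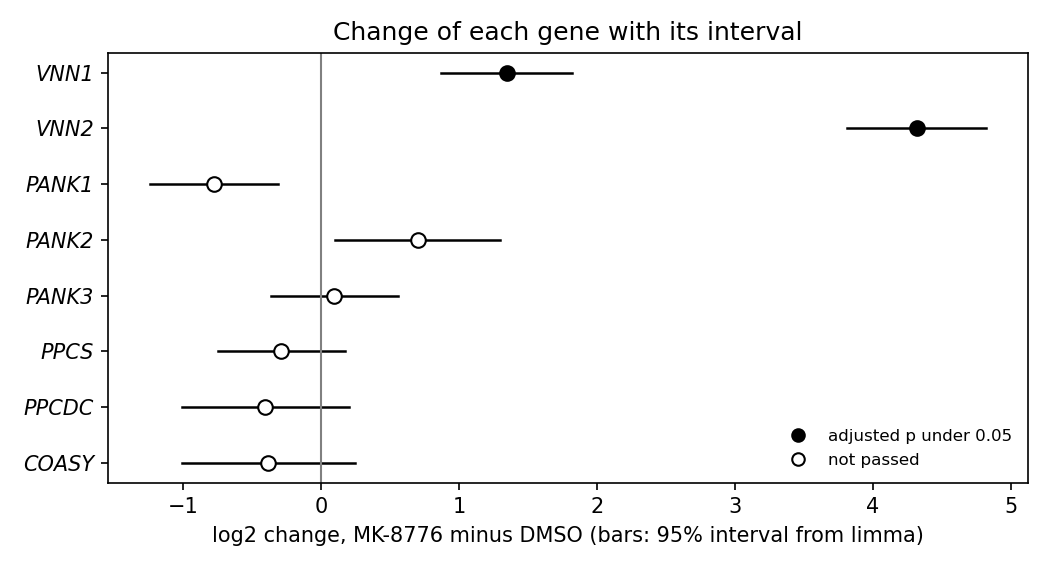
Log2 change, MK-8776 minus DMSO, of each measured gene with its 95% interval from limma. Filled points passed an adjusted p of 0.05 over all genes and open points did not. The intervals of VNN1 and VNN2 lie above 0 and apart from each other, those of PANK1 and PANK2 lie on opposite sides of 0, and the other 4 include 0.

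Genes around the route were taken from 9 lists, of which 73 of 79 listed genes were measured. Of these 73, 1 rose and 1 fell in the limma fit, where 3.69% of all genes passed, and 22 had an unadjusted p under 0.05, where 18.8% of all genes did. Their median change was -0.095, against 0.005 over all genes. The 2 genes that passed, CD14 and MYC, belong to no enzyme list.

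Entry of the vitamin and the handling of its carrier group gave 0 calls. Of all genes, 3.69% passed and 18.8% had an unadjusted p under 0.05. Of 3 measured genes of pantothenate and biotin entry, limma called 0 and 0 had an unadjusted p under 0.05. The vitamin transporter gene SLC5A6 had a change of -0.135 (-0.065 to -0.205 with 1 array left out), and BTD, which encodes biotinidase, an enzyme of the same family as the vanins, had -0.265. Of 7 genes of phosphopantetheine and acyl carrier use, limma called 0, with 3 at an unadjusted p under 0.05. The groups did not overlap in any of the 7, 5 lower and 2 higher, where 24.2% of all genes were wholly lower and 24.0% wholly higher. The largest changes were 0.805 for ALDH1L1, a folate enzyme with an acyl carrier domain, and -0.74 for AASDH (adjusted p = 0.116 and 0.0918). AASDH passed among features above the median level (0.0487).

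Transport and breakdown of coenzyme A gave 0 calls as well. Over all genes the shares were 3.69% called and 18.8% at an unadjusted p under 0.05. Of 3 carrier genes limma called 0, with 0 at an unadjusted p under 0.05. SLC25A42, which encodes the mitochondrial coenzyme A carrier, was at 4.51 and 5.55 in DMSO and 4.58 and 3.84 in MK-8776, which overlap (change -0.82, from -0.30 without DMSO replicate 2 to -1.34 without DMSO replicate 1), and the peroxisomal carrier gene SLC25A17 had a change of 0.505 that turned to -0.26 without DMSO replicate 2. Of 6 breakdown genes limma called 0, with 1 at an unadjusted p under 0.05. That was NUDT7, which encodes a peroxisomal coenzyme A diphosphatase, at 5.44 and 6.07 in DMSO and 3.98 and 5.03 in MK-8776. Its change was -1.25 (SE 0.36, adjusted p = 0.107, limma). NUDT8, a mitochondrial enzyme of the same family, had -0.295 (-0.455 and -0.135 without MK-8776 replicate 1 and 2). The change of NUDT7 was -0.725 without MK-8776 replicate 1.

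Cysteamine, the other product of vanins, is oxidised to hypotaurine and on to taurine. Of 6 measured genes of this route limma called 0, where 3.69% of all genes passed. At an unadjusted p under 0.05 there was 1 of the 6, against 18.8% of all genes. A positive change was seen in 5 of the 6, and in 8903 of all 17687 genes. The taurine transporter gene SLC6A6 was at 11.34 and 11.42 in DMSO and 12.30 and 12.06 in MK-8776. Its change was 0.80 (SE 0.21, adjusted p = 0.0823, limma). It passed with a variance trend (0.0185) and among features above the median level (0.0452). CDO1, the cysteine dioxygenase gene, had a change of 0.335, which was 0.51 and 0.16 without DMSO replicate 1 and 2.

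Enzymes that load acyl groups onto coenzyme A or free it again showed no shared direction. Of 15 acyl-CoA synthetase genes limma called 0, where 3.69% of all genes passed. At an unadjusted p under 0.05 there were 5 of the 15, against 18.8% of all genes. A positive change was seen in 7 and a negative one in 8, and the median was -0.095. The largest were ACSM3 at -0.95 and the mitochondrial acetate enzyme gene ACSS1 at -0.835 (adjusted p = 0.112 and 0.155). ACSM3 was at -0.595 without DMSO replicate 2, and ACSS1 at -0.435 without MK-8776 replicate 1. Of 12 thioesterase genes limma called 0, with 2 at an unadjusted p under 0.05, and the median was -0.02. ACOT11 at -0.895 and BAAT at 0.50 had the largest changes, ACOT11 at -0.585 without MK-8776 replicate 2, and 3 of the 12 lay under the lower quartile in both groups.

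Of 5 measured regulators named for vanins or pantothenate kinases, MYC fell, 0 rose and 4 did not pass, where 2.02% of all genes fell. At an unadjusted p under 0.05 there were 4 of the 5, against 18.8% of all genes. The groups did not overlap in any of the 5, as in 48.2% of all genes. MYC measured 12.98 and 13.51 in DMSO and 10.09 and 10.99 in MK-8776 (change -2.71, adjusted p = 0.00686, limma), and without any 1 array the change was -2.26 to -3.16 and the adjusted p 0.0516 to 0.365. PPARA, a lipid-sensing receptor under which VNN1 and PANK1 are induced in liver, had -0.645 (adjusted p = 0.155). PPARG had 0.725 (adjusted p = 0.163). Both were chosen after their values were seen.

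Of 16 measured genes of other GPI-anchored, mostly leukocyte, proteins, 1 rose, 0 fell and 15 did not pass, where 1.66% of all genes rose. Their median change was 0.025, and changes ran from -0.635 to 1.37. At an unadjusted p under 0.05 there were 6 of the 16, against 18.8% of all genes. The groups did not overlap in 10 of the 16, 5 higher and 5 lower, as in 48.2% of all genes. The one that rose was CD14, a lipopolysaccharide co-receptor of monocytes, from 4.41 and 4.63 to 5.44 and 6.34 (change 1.37, adjusted p = 0.0491, limma). That call was lost after quantile normalization (0.0599), with all features tested (0.0599) and against a fold of 1.2 (0.104). It was also lost with the replicate number as a block (0.0670) and without any 1 array, where the change ran from 0.92 to 1.82.

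**Figure D4:**
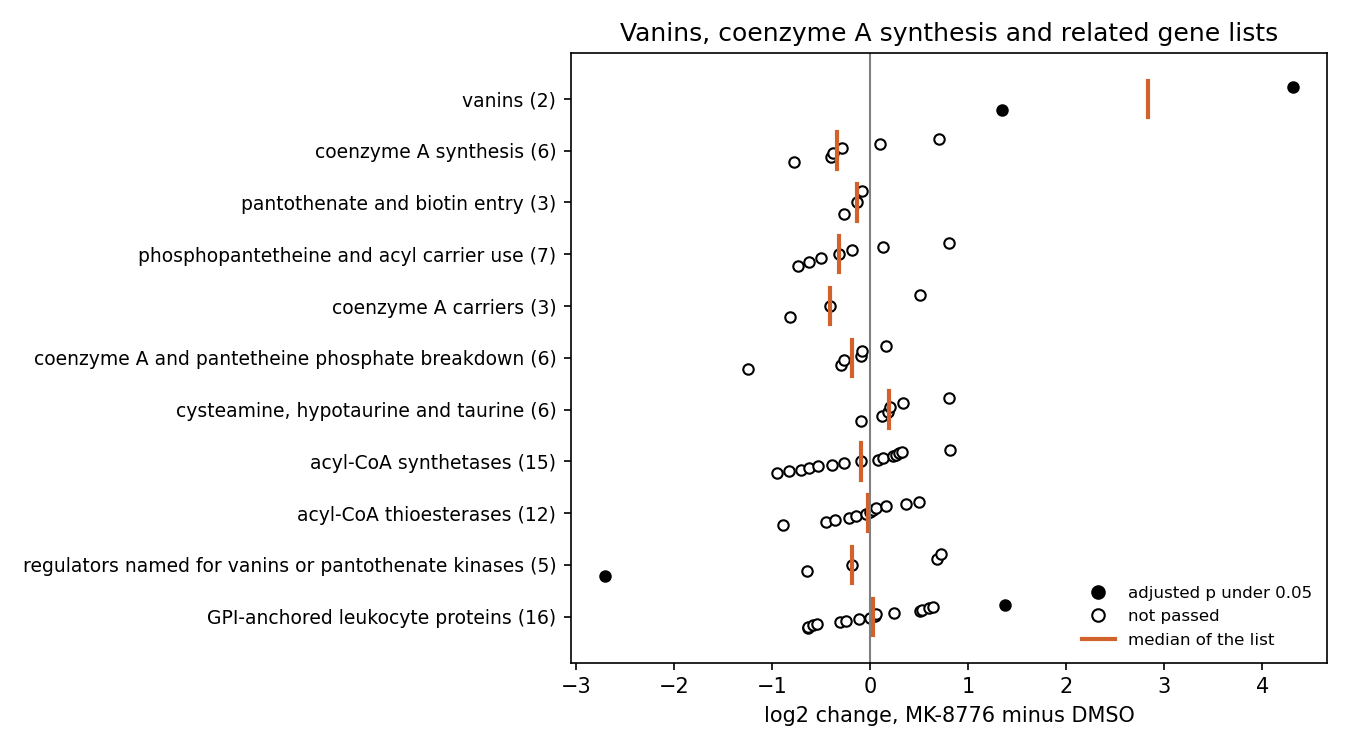
Log2 change, MK-8776 minus DMSO, of each measured gene of the vanins, the synthesis enzymes and the 9 related lists, with the number measured in brackets. Filled points passed an adjusted p of 0.05 over all genes, open points did not, and orange bars are medians. Outside the vanins only MYC and CD14 are filled.

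Markers of cells that carry VNN2 were set beside its rise. Of 8 mature neutrophil markers, limma called 0, where 3.69% of all genes passed. Their mean level was 4.78 to 4.83 in DMSO and 4.70 to 4.72 in MK-8776, with 5 positive and 3 negative changes. Of the 8, 4 lay under the lower quartile in both groups (CAMP, LCN2, MMP8 and FCGR3B), and the surface marker CEACAM8 was at 4.23 and 4.27 against 4.41 and 4.19. LTF was wholly lower, at 5.06 and 5.15 against 4.00 and 4.31 (change -0.95, adjusted p = 0.0534, limma). The dim MMP8 was wholly higher, at 3.48 and 3.07 against 3.64 and 3.76 (change 0.425, adjusted p = 0.368, limma). CSF3R was at 9.48 and 9.16 against 9.21 and 9.49. Of 5 monocyte markers, CD14 rose and 4 did not pass, where 1.66% of all genes rose. Those 4 had changes of 0.265 (FCN1), -0.175 (CSF1R), -0.215 (VCAN) and -0.27 (MS4A7). The mean level of the 5 was 5.58 to 5.70 in DMSO and 5.58 to 6.09 in MK-8776. The part of either cell type in the rise of VNN2 was not tested.

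The genes whose 4-array profile lay nearest to that of VNN2 were S100A8, C5AR1, FPR2, CCL2 and AQP9. Nearness was the Euclidean distance between log2 values centred on each gene's mean, over the 4 arrays and among genes whose higher group mean was above the median of all values (5.77). It largely follows the size of the change. S100A8, which encodes a calprotectin subunit, was nearest at a distance of 0.127, with 6.18 and 5.85 in DMSO and 10.28 and 10.30 in MK-8776. C5AR1, the complement C5a receptor gene, followed at 0.197, the formyl peptide receptor gene FPR2 at 0.499, the chemokine gene CCL2 at 0.625 and the water and glycerol channel gene AQP9 at 0.782. Nearest to VNN1 were ADGRE2, an adhesion receptor gene of myeloid cells, at 0.137, IER3 at 0.145, WASHC2A at 0.150, ALOX5AP, which encodes the activating protein of 5-lipoxygenase, at 0.165, and SPNS1 at 0.166. All 10 rose, which follows from the choice by profile.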

How the data were processed

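RNA of 4 samples was measured on Affymetrix arrays. The deposited values are log2 expression, 1 per feature and array, made by the authors with RMA on genome build hg38, per the submitters' processing notes. The version and settings of RMA are not stated in these sources, and the log2 scale was taken from the values (2.16 to 18.54). RMA makes arrays alike in distribution, so changes are relative to other genes. There is no detection call, and the number of arrays limits the precision.

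Of 21448 features, 17709 had 1 gene symbol, 0 had several and 3739 had none. All 17709 matched the RefSeq table (GRCh38.p14) by gene number, and the highest-mean feature was taken for 20 genes with several, leaving 17687. These were fitted with limma 3.58.1 in R 4.3.3 (lmFit, eBayes, two-sided, no filter), with Benjamini-Hochberg adjustment over all genes, 2 residual and 6.30 prior degrees of freedom. The fit was also run on simulated data with independent noise drawn from its own model. Such a run cannot address spread that is technical or shared between replicates. With 2 arrays a group, the smallest exact permutation p is 0.333.

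Members and lists were chosen with earlier results of these data known. Named are all members, CHEK1, up to 4 called genes of each list (otherwise the 2 largest changes), the 5 nearest profiles to each vanin and 4 neighbours on each side of VNN2. Other genes named, such as marker genes, PPARA and PPARG, were chosen for their level or role after their values were seen. Of the 9 members, 8 matched the promoter table, and VNN1 did not, so its promoter was not searched. Other normalizations, filters, variance models, a replicate block and leaving out each array were tried.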

Additional observations from a re-analysis of the deposited data

How the results depend on the processing

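The 8 measured vanin and coenzyme A genes kept the sign of their change under every alternative run. For most alternatives this was fixed, since only the normalizations and leaving out an array alter a change. Leaving out an array cannot turn the sign where the groups do not overlap, as in 6 of the 8. In the genes with overlap, PPCDC and COASY, the change shrank to -0.105 and -0.035 without MK-8776 replicate 1. Among features above the median level, the 2 called members were VNN2 and PANK1, and VNN1 was not tested. VNN2 entered that filter only through its treated arrays (4.52 in DMSO, 8.84 in MK-8776, median 5.77), so its call there is no support. The count of 2, both vanins, held under the other alternatives that kept the 4 arrays. It was 0 to 1 when 1 array was left out. Over all genes 652 passed, 1185 with a variance trend, 1162 with robust estimation added, 288 against a fold of 1.2, and 0 to 34 without 1 array (1815 to 3017 at an unadjusted p under 0.05). In the related lists 2 genes passed, 5 with either variance trend, 3 of 50 tested above the median level, 1 after quantile normalization, 1 with all features tested and 0 without any 1 array (11 to 16 at an unadjusted p under 0.05). The change of SLC25A17, 0.505 with all arrays, ran from -0.26 to 1.27 when 1 array was left out. Replicate numbers occur in both groups but the labels tie them to nothing, and deviations of same-numbered arrays correlated at 0.139 across genes. With the replicate number as a block 309 genes passed, 1 of them in the related lists (MYC, with CD14 at an adjusted p of 0.0670), VNN1 at an adjusted p of 0.0494 and VNN2 at 0.0123. No member had a second feature to try. Dim features such as VNN1 in DMSO have no measured background here, and where calls changed the cause was not tested.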
